A study of Mus musculus with 12 samples.

Results

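The BTG and TOB genes encode small antiproliferative proteins, and 5 of them (Btg1, Btg2, Btg3, Tob1 and Tob2) were followed here together with Pik3ip1, the gene of a membrane protein that binds the catalytic subunit of class I PI3-kinase and inhibits it. Members were the genes whose probes carry that name, or an older symbol of it, in the array files. The array held 12 probes for these 6 genes out of 41174 probes in all. All 6 genes passed the filter on dim probes and stood among the 17132 genes tested, through 11 of their 12 probes. The brightest probe stood for its gene. Pik3ip1 is listed in the files under the clone name 1500004A08Rik.

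BTG and TOB proteins share a conserved amino-terminal domain that binds the deadenylase subunits of the CCR4-NOT complex, and TOB proteins also carry motifs that bind the cytoplasmic poly(A)-binding protein. Through these contacts they bring the deadenylase to messenger RNAs, whose poly(A) tails are shortened and which then decay. In mice Btg1 and Btg2 hold T cells in quiescence and take part in early B cell development, and in human B cell lymphomas both genes are often mutated. Btg2 is also a target of p53. LPS, a bacterial ligand of TLR4, drives resting B cells into the cell cycle, and PI3-kinase signalling is one of the pathways that lymphocyte activation turns on.

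The series profiled RNA of sorted splenic B cells from C57BL/6 mice on 12 one-colour arrays, with 3 arrays in each of 4 groups. The groups were LPS-stimulated Ebf1fl/flRERTCre cells (LPS fl/fl), LPS-stimulated Ebf1+/flRERTCre cells (LPS +/fl), unstimulated Ebf1fl/flRERTCre cells (resting fl/fl) and unstimulated Ebf1+/flRERTCre cells (resting +/fl). Ebf1 is a transcription factor of the B lineage. Every group, the heterozygote +/fl control included, carried the tamoxifen-inducible RERT-Cre and at least 1 floxed Ebf1 allele, and every mouse received 3 mg tamoxifen citrate on each of 4 days and was killed on day 10. A genotype comparison is therefore between 2 floxed alleles and 1, with no animals lacking Cre or tamoxifen. The labels give neither the dose nor the duration of LPS, nor the age of the mice, and of the 2 gates they list, B220+AA4.1- with or without a CD21lo step, they assign neither to a sample. They speak of triplicates but do not call them separate animals, and p-values then measure only how far these samples spread, which may be technical.

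Values are log2 of the background-subtracted signal relative to the 75th percentile of the array, so 0 is that percentile. Raw 75th percentiles ran from 568 to 701 on LPS arrays and from 304 to 486 on resting arrays. The array of LPS fl/fl replicate 2 read high at dim probes, with 83.2% of spots well above background, against 54.4% to 61.4% on the others. All 10 B cell markers on the list, Cd79b, Ms4a1 and Pax5 among them, were above background on all 12 arrays. The 2 probes of Ebf1 did not move together in resting cells. The first had 1.85, 1.70 and 1.74 in resting fl/fl cells, against 0.78, 1.42 and 1.22 in resting +/fl cells (difference 0.62, SE 0.15, adjusted p 0.0384 over all probes). The second had -4.18, -4.22 and -4.99 in resting fl/fl cells, against -2.41, -2.15 and -3.13 in resting +/fl cells (difference -1.90, SE 0.48, adjusted p 0.0432), and no source used here states which exons were deleted, so the probes do not check the deletion.

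The brightest probes lie, on the mm7 build that the files use, at chr10:96181768-96181827 (plus strand) for Btg1, chr1:133965302-133965361 (minus) for Btg2, chr16:78357458-78357517 (minus) for Btg3, chr11:94323681-94323740 (plus) for Tob1, chr15:81933453-81933512 (minus) for Tob2 and chr11:3294107-3294166 (plus) for Pik3ip1. Gene models of that build were not used here, so exon or untranslated region is not stated for a probe. Upstream sequence was taken from RefSeq promoters on another build, GRCm38.p6, which covered all 6 genes, with 1 promoter each except 2 for Btg3. The 250 bases before each annotated start were searched on both strands for the FOXO element TGTTTAC and the cAMP response element (CRE) TGACGTCA. The other motifs were the core promoter box spelled TATAAA, the box spelled CCAAT that the factor NF-Y is known to bind, the E-box spelled CACGTG and a palindromic EBF1 element. No matches in the members' promoters overlapped each other. The promoters of Btg1 and Btg2, the pair of members with the most alike values over the 12 arrays, are shown first, then those of Btg3, whose LPS response ran the other way, and of Pik3ip1, whose response was the largest. Capitals mark the matches. They lie at chr10:96616751-96617000 (plus strand) for Btg1, chr1:134079156-134079405 (minus) for Btg2, chr16:78377182-78377431 (minus) for Btg3 start 1, chr16:78376811-78377060 (minus) for Btg3 start 2 and chr11:3330481-3330730 (plus) for Pik3ip1.
Btg1: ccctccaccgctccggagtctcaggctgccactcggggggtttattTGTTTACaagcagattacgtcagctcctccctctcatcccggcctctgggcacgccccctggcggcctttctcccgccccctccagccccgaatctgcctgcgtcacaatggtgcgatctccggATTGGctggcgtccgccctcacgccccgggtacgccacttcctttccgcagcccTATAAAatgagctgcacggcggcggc
Btg2: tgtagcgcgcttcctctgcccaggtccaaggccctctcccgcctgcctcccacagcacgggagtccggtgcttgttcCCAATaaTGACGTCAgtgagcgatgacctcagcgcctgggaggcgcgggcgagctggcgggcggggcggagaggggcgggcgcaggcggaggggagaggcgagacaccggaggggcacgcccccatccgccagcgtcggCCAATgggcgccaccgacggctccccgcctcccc
Btg3 start 1: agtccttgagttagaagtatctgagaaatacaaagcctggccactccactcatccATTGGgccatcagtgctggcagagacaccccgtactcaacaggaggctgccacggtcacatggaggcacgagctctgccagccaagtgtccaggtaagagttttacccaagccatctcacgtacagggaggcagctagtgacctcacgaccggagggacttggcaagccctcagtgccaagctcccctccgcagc
Btg3 start 2: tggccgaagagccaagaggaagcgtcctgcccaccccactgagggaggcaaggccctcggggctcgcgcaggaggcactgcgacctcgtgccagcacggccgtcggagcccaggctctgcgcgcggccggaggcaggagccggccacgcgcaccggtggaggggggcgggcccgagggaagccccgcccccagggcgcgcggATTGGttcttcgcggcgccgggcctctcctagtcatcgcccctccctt
Pik3ip1: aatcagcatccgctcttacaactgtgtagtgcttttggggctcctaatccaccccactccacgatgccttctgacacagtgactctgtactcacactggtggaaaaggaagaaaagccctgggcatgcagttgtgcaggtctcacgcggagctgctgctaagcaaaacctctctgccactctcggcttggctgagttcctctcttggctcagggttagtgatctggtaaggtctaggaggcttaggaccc

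The Btg1 promoter held the FOXO element 204 to 198 bases before the start, a motif found in 3.17% of 32851 mouse promoters of that length, and a TATAAA 26 to 21 bases before it, found in 12.4%. The Btg2 promoter held the CRE 166 to 159 bases before the start, found in 1.55% of promoters. Its CRE lay 2 bases from a CCAAT, a motif found in 33.8% of promoters and also in those of Btg1, Btg3 and Tob1. Tob1 had a TATAAA too, 47 to 42 bases before its start. None of the 7 promoters held the EBF1 element (0.779% of promoters) or the E-box (6.02%), and those of Tob2 and Pik3ip1 held none of the 6 motifs. A match is a description of these letters and not a site of binding.

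LPS lowered Btg1 and Btg2, raised Btg3 and lowered Pik3ip1 in cells of both genotypes, relative to the 75th percentile. In fl/fl cells 5 members fell and 1 rose, and in +/fl cells 4 fell, 1 rose and 1 (Tob2) did not pass the test. The LPS response itself was broad: 55.6% of all genes tested passed an adjusted p of 0.05 in fl/fl cells (25.4% lower, 30.2% higher) and 57.7% in +/fl cells (27% lower, 30.7% higher). The median difference over the 6 members was -0.98 in fl/fl cells and -1.17 in +/fl cells, against 0.07 and -0.02 over all genes. Values did not overlap between LPS and resting arrays for 6 of 6 members in fl/fl cells and 5 of 6 in +/fl cells, against 62.1% and 65.7% of all genes.

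**Figure D1:**
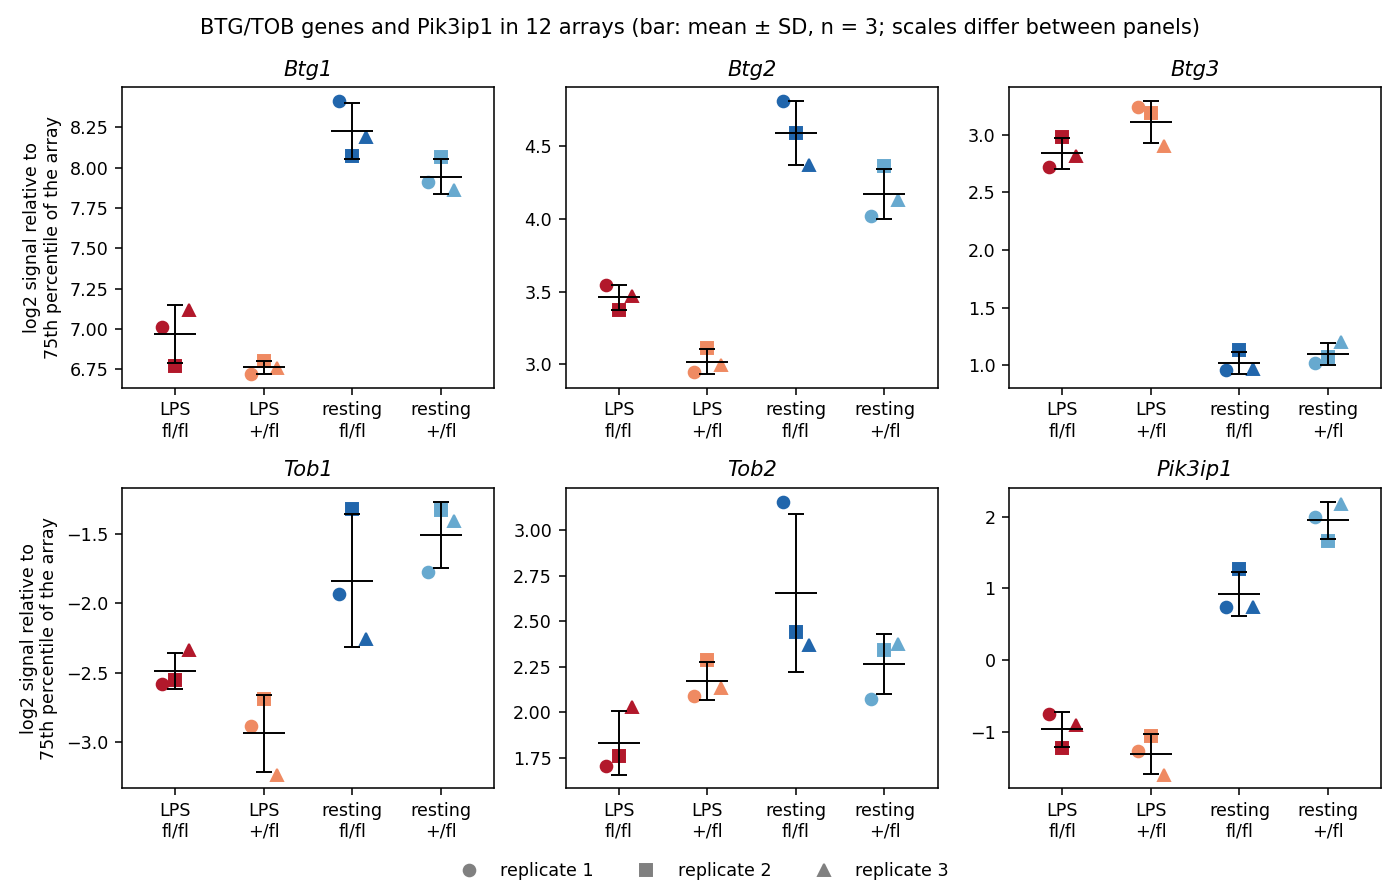
Log2 signal over the 75th percentile of its array (vertical axis, with its own scale in each panel) of the 6 genes on each of the 12 arrays, by group (horizontal axis). Points are arrays, shaped by replicate, and bars are the mean and SD of 3 arrays. The LPS arrays lie below all resting arrays for Btg1, Btg2, Pik3ip1 and, by a narrow margin, Tob1, and above them for Btg3.

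Btg1, a founding member of the family, had 7.01, 6.77 and 7.12 in LPS fl/fl cells, against 8.41, 8.07 and 8.19 in resting fl/fl cells. In +/fl cells it had 6.72, 6.80 and 6.76 after LPS, against 7.91, 8.07 and 7.86 at rest. Every LPS array was lower than every resting array. Btg1 fell by 1.26 in fl/fl cells (SE 0.12, 2.39-fold, adjusted p 1.48e-05), and the fall in +/fl cells was 2.27-fold (log2 difference -1.18, SE 0.12, adjusted p 2.07e-05). Its second probe, at chr10:96181112-96181171, fell as well, with -0.75 in fl/fl cells (adjusted p 0.00281 over all probes) and -1.39 in +/fl cells (adjusted p 4.45e-05). No array was marked as saturated at either probe.

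Btg2, the p53-responsive member, behaved much like Btg1. It had 3.54, 3.37 and 3.47 in LPS fl/fl cells, against 4.81, 4.59 and 4.37 in resting fl/fl cells. In +/fl cells the values were 2.95, 3.11 and 2.99 after LPS, against 4.02, 4.36 and 4.13 at rest, again with no overlap. The differences were -1.13 in fl/fl cells (SE 0.13, 2.19-fold lower, adjusted p 5.22e-05) and -1.15 in +/fl cells (SE 0.13, 2.23-fold lower, adjusted p 4.13e-05). Of its other probes, that at chr1:133967124-133967183 gave -1.27 and -1.18 in fl/fl and +/fl cells, and that at chr1:133967389-133967448 gave -0.88 and -1.11, and all 4 of these differences passed the test over all probes. The root mean square difference between Btg1 and Btg2 over the 12 arrays, each centred on its own mean, was 0.14, the smallest among the 15 pairs of members.

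Btg3 was the member that rose. It had 2.72, 2.98 and 2.82 in LPS fl/fl cells, against 0.96, 1.13 and 0.97 in resting fl/fl cells, and 3.24, 3.19 and 2.90 in LPS +/fl cells, against 1.02, 1.07 and 1.199 in resting +/fl cells. The LPS values lay above all resting values in both genotypes. Btg3 was 1.82 higher after LPS in fl/fl cells (SE 0.12, 3.53-fold, adjusted p 1.03e-06) and 2.01 higher in +/fl cells (SE 0.12, 4.04-fold, adjusted p 4.91e-07). It has 1 probe on the array. Its pattern was the farthest from that of Pik3ip1, with a root mean square difference of 2.29.

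Tob1, one of the members with contacts to the poly(A)-binding protein, had -2.58, -2.55 and -2.34 in LPS fl/fl cells, against -1.93, -1.32 and -2.26 in resting fl/fl cells. In +/fl cells it had -2.88, -2.69 and -3.23 after LPS, against -1.78, -1.33 and -1.41 at rest. Resting fl/fl replicate 3 lay only just above the LPS fl/fl arrays, while in +/fl cells the gap was wide. Tob1 fell by 1.43 in +/fl cells (SE 0.24, 2.69-fold, adjusted p 4.996e-04). In fl/fl cells it fell by 0.65 (SE 0.24, 1.57-fold, adjusted p 0.0397). That call ended without any one of resting fl/fl replicates 1 and 2, resting +/fl replicate 3, LPS fl/fl replicates 1, 2 and 3 and LPS +/fl replicate 1 (differences -0.86 to -0.39 over the 12 omissions), and the adjusted p ran between 0.00262 and 0.627 over all alternatives. Tob1 has 1 probe.

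Tob2 had 1.70, 1.76 and 2.03 in LPS fl/fl cells, against 3.16, 2.44 and 2.37 in resting fl/fl cells, where replicate 1 was high. In +/fl cells it had 2.09, 2.29 and 2.13 after LPS, against 2.07, 2.34 and 2.37 at rest, and these overlapped. Tob2 fell by 0.83 in fl/fl cells (SE 0.20, 1.77-fold, adjusted p 0.00557), and the difference in +/fl cells was -0.09 (SE 0.20, adjusted p 0.718). Its probes disagreed. The second, at chr15:81934170-81934229, had -0.66, -0.58 and -0.66 in LPS fl/fl cells, against 0.97, 0.80 and 0.87 in resting fl/fl cells, and -0.22, -0.34 and -0.65 in LPS +/fl cells, against 0.93, 1.14 and 0.85 in resting +/fl cells. There the LPS difference was -1.51 in fl/fl cells (adjusted p 5.71e-06 over all probes) and -1.37 in +/fl cells (adjusted p 9.93e-06). What sets these probes apart was not tested. The third probe, for a clone sequence, was above background on 1 of 12 arrays and was left out.

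Pik3ip1, the PI3-kinase inhibitor, had the largest LPS response of the 6. It had -0.76, -1.23 and -0.90 in LPS fl/fl cells, against 0.74, 1.27 and 0.74 in resting fl/fl cells. In +/fl cells it had -1.27, -1.06 and -1.60 after LPS, against 1.9995, 1.67 and 2.18 at rest. No values overlapped. The fall was 3.68-fold in fl/fl cells (log2 difference -1.88, SE 0.21, adjusted p 3.86e-05). It was 9.56-fold in +/fl cells (log2 difference -3.26, SE 0.21, adjusted p 8.76e-07). The second probe, chr11:3285674-3285733, gave -1.73 in fl/fl cells (adjusted p 1.60e-04 over all probes) and -2.95 in +/fl cells (adjusted p 3.75e-06).

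**Figure D2:**
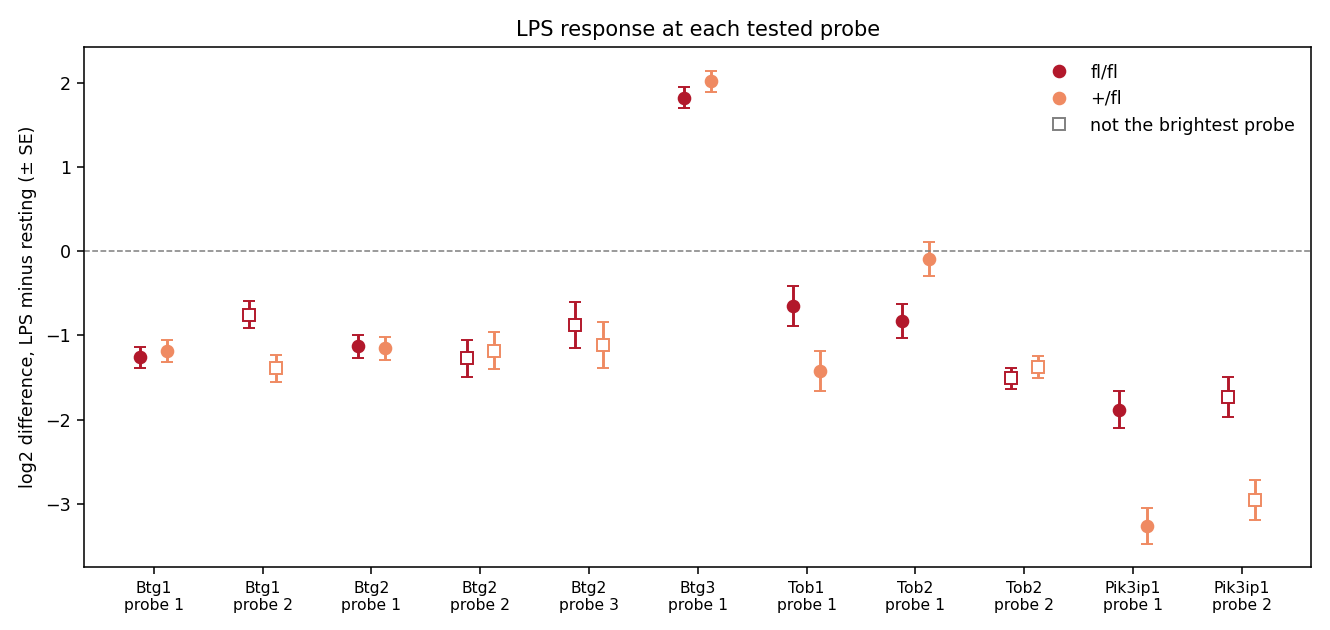
LPS response (vertical axis, log2 difference of LPS minus resting, with its SE) at each of the 11 tested probes (horizontal axis) in fl/fl and +/fl cells. Filled circles are the brightest probe of a gene and open squares its other probes. Every response is below 0 except those of Btg3, and Tob2 probe 1 in +/fl cells is the nearest to 0, at -0.09.

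The LPS responses depend on the scaling between arrays. Without any scaling, added as an alternative after the data were seen, the median of all genes moved by 0.83 in fl/fl cells and 0.60 in +/fl cells. In fl/fl cells Btg1 then differed by -0.43 (adjusted p 0.0493), Btg2 by -0.30 (adjusted p 0.200) and Pik3ip1 by -1.05 (adjusted p 0.0132), while Tob1 and Tob2 turned to 0.18 (adjusted p 0.627) and 0.0035 (adjusted p 0.990). In +/fl cells Btg1 differed by -0.59, Btg2 by -0.56, Tob1 by -0.83 and Pik3ip1 by -2.66, all past the threshold. Btg3 rose by 2.65 in fl/fl cells and 2.61 in +/fl cells on that scale. Falls relative to the 75th percentile are thus falls relative to the bulk of the array. With normexp background correction, which failed on some arrays, 2 members passed in each genotype, Btg3 and Pik3ip1. With a repaired form of it, added after the data were seen, every member passed in fl/fl cells. In +/fl cells every member but Tob2 (adjusted p 0.711) then passed. Within a slide, where LPS and resting arrays of a genotype stood together, Btg1, Btg2, Tob1 and Pik3ip1 were lower after LPS and Btg3 higher on each of 2 slides per genotype, and Tob2 in +/fl cells gave -0.13 and 0.02.

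Markers of B cells and of other cells moved with LPS as well. Of the 10 B cell markers 7 fell in fl/fl cells (list median -2.31) and 8 in +/fl cells (list median -2.08), and 0 rose. Over all genes 25.4% and 27% fell and 30.2% and 30.7% rose in fl/fl and +/fl cells. The summed level of 12 T cell markers, in multiples of the 75th percentile, was 10.2 to 13.1 on LPS fl/fl arrays and 8.31 to 9.56 on LPS +/fl arrays, against 32.3 to 37.4 on resting fl/fl arrays and 31.6 to 48.6 on resting +/fl arrays. That of 7 NK cell markers was 2.94 to 5.46 and 1.32 to 2.05 on LPS fl/fl and LPS +/fl arrays, against 15.8 to 23.3 and 16.9 to 44.8 on resting fl/fl and resting +/fl arrays. The T cell markers Cd3e, Cd3d, Cd3g and Lck were above background on all 12 arrays. Of the 12, 4 fell, 1 rose and 7 did not pass in fl/fl cells (list median -0.12), and 6 fell and 6 did not pass in +/fl cells (list median -0.90). The differences of these sums rest mostly on Cd2, which differed by -4.73 in fl/fl and -4.94 in +/fl cells and which mouse B cells are also known to express, and on the T cell kinase gene Lck, with -1.75 and -1.89. Of the 7 NK cell markers 6 fell in fl/fl cells and 7 in +/fl cells. The part of such cells in the members' responses was not tested, and in these bulk samples fewer cells of a type and less RNA per cell cannot be told apart.

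At the brightest probes the order of the group levels was the same for Btg1 and Btg2: resting fl/fl (8.23 ± 0.17 and 4.59 ± 0.22, SD, n = 3) above resting +/fl (7.94 ± 0.11 and 4.17 ± 0.17), then LPS fl/fl (6.97 ± 0.18 and 3.46 ± 0.09) and LPS +/fl (6.76 ± 0.04 and 3.02 ± 0.09). At the second probe of Btg1 the resting genotypes stood the other way (fl/fl minus +/fl -0.17, SE 0.16). In both genes neighbours of the same stimulation did not differ past the test. Btg3 ran the other way, with LPS +/fl (3.11 ± 0.18) and LPS fl/fl (2.84 ± 0.13) above resting +/fl (1.10 ± 0.09) and resting fl/fl (1.02 ± 0.10). Pik3ip1 was highest in resting +/fl cells (1.95 ± 0.26), then in resting fl/fl (0.92 ± 0.31), LPS fl/fl (-0.96 ± 0.24) and LPS +/fl cells (-1.31 ± 0.27), and its LPS neighbours did not differ past the test. Tob1 had resting +/fl (-1.51 ± 0.24) and resting fl/fl (-1.84 ± 0.48) above LPS fl/fl (-2.49 ± 0.13) and LPS +/fl (-2.94 ± 0.28). For Tob2 the spread of resting fl/fl (2.66 ± 0.44) reached over resting +/fl (2.26 ± 0.16), and LPS +/fl (2.17 ± 0.10) overlapped resting +/fl, with LPS fl/fl (1.83 ± 0.17) lowest.

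The genotype comparison in resting cells sets floxed Ebf1 on both alleles against floxed Ebf1 on 1. Pik3ip1 was the only one of the 6 members to pass the test there, with 1 lower and 0 higher, against 8.83% of all genes (4.19% lower, 4.64% higher). It was 1.03 lower in resting fl/fl cells than in resting +/fl cells (SE 0.21, 2.04-fold, adjusted p 0.0218), with 0.74, 1.27 and 0.74 in resting fl/fl cells, against 1.9995, 1.67 and 2.18 in resting +/fl cells. The highest fl/fl array stayed below the lowest +/fl array. On the 3 slides, each with 1 array of either group, the difference was -0.93, -0.73 and -1.44.

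The call on Pik3ip1 was close to the threshold. It ended without resting fl/fl replicate 1 (-0.94, adjusted p 0.0780), resting fl/fl replicate 3 (-0.94, adjusted p 0.0567), resting +/fl replicate 1 (-1.01, adjusted p 0.0657) and resting +/fl replicate 3 (-0.92, adjusted p 0.0630). Over all alternatives the adjusted p ran between 0.00735 and 0.999995, the highest with normexp, which failed on some arrays. With repaired normexp it was 0.00756. The second probe had -0.69, -0.84 and -0.69 in resting fl/fl cells, against -1.01, 0.10 and -0.15 in resting +/fl cells, where replicate 1 lay below the fl/fl arrays (difference -0.39, SE 0.24, adjusted p 0.328 over all probes). Markers of other cells differed between the resting +/fl arrays. The summed level of 11 tested myeloid markers, of 12 listed, was 21.1, 14.7 and 16.8 on resting fl/fl arrays, against 131, 19.7 and 94.7 on resting +/fl arrays. Without resting +/fl replicates 1 and 3, a choice made after the data were seen, Pik3ip1 differed by -0.75 (adjusted p 0.289). That fit has 1 resting +/fl array, assumed to vary like the other groups, and called 83 of all genes, against 1512 with all arrays. Marginal zone markers moved the same way as Pik3ip1, with 5 of 6 lower in resting fl/fl cells. Their summed level was 55.5, 44.9 and 46.1 on resting fl/fl arrays, against 138, 114 and 136 on resting +/fl arrays. One of them, Cr2, encodes CD21, which 1 of the 2 gates selects on, and the part of either cell type in the Pik3ip1 difference was not tested.

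The other 5 members did not pass in resting cells. Btg2 differed by 0.42 (SE 0.13, adjusted p 0.0772), with 3 of 3 resting fl/fl arrays above all resting +/fl arrays, by a narrow margin for replicate 3, and with 0.45, 0.57 and 0.24 on the 3 slides. Its other probes gave 0.62 and 0.40. Btg1 differed by 0.28 (SE 0.12, adjusted p 0.176) at the brightest probe and by -0.17 at the second. The values were 0.39 for Tob2 (SE 0.20, adjusted p 0.235), -0.33 for Tob1 (SE 0.24, adjusted p 0.402) and -0.08 for Btg3 (SE 0.12, adjusted p 0.723), whose 95% interval was -0.35 to 0.19. Values of resting fl/fl and resting +/fl arrays did not overlap for 3 of 6 members, against 31.2% of all genes.

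After LPS none of the 6 members passed the genotype test in limma, against 1.62% of all genes. An unadjusted p under 0.05 was found for 2 of the 6, against 3678 of all 17132 genes. Btg2 differed by 0.44 (SE 0.13, adjusted p 0.114), with all LPS fl/fl arrays above all LPS +/fl arrays, and its other probes gave 0.53 and 0.64. Btg3 differed by -0.27 (SE 0.12, adjusted p 0.228). With array weights, under which LPS fl/fl replicate 2 counts least, both passed, Btg2 at 0.51 (adjusted p 0.0105) and Btg3 at -0.34 (adjusted p 0.0442), and over all alternatives their adjusted p ran between 0.0105 and 0.886 and between 0.0442 and 0.842. The Btg2 value spanned -0.08 to 0.88 over the alternatives, with the lowest under median scaling. The differences of Tob1 (0.45), Pik3ip1 (0.35), Btg1 (0.21) and Tob2 (-0.34) had adjusted p values of 0.301, 0.362, 0.354 and 0.343. Second probes gave larger differences for Pik3ip1 (0.83, SE 0.24, adjusted p 0.118 over all probes) and Btg1 (0.47, SE 0.16, adjusted p 0.164). The second probe of Tob2 gave -0.23. With the mean over probes Pik3ip1 differed by 0.59 (adjusted p 0.0723). Values did not overlap for 3 of 6 members, against 33.2% of all genes.

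**Figure D3:**
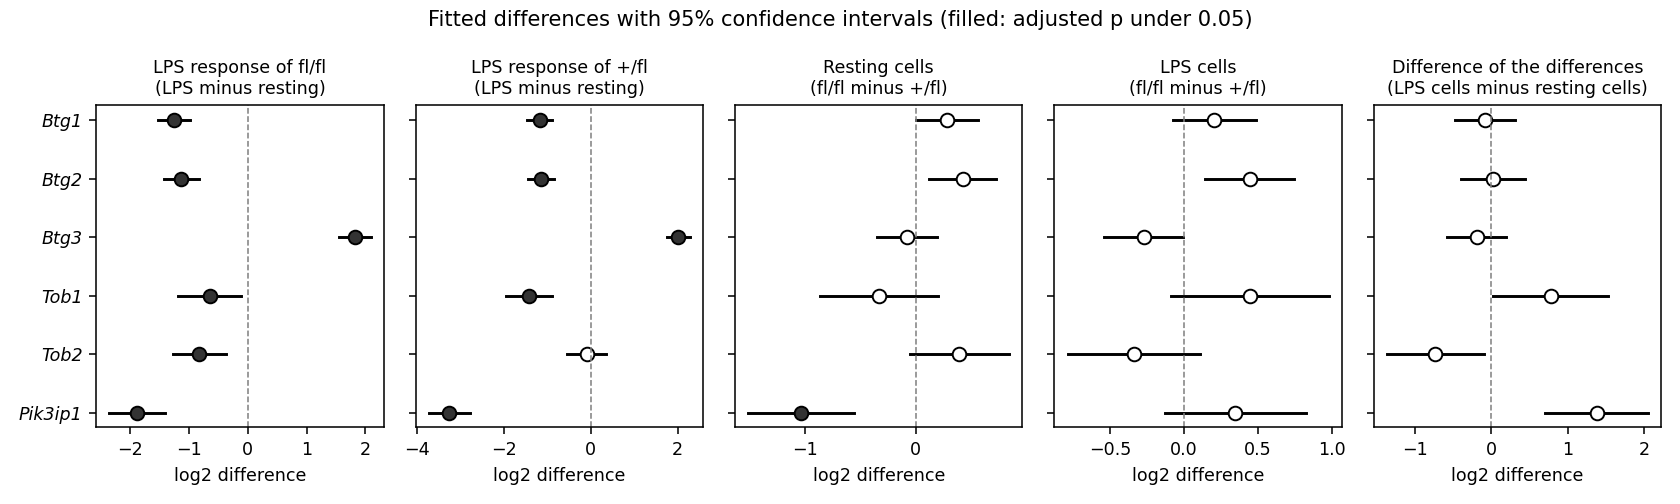
Fitted log2 differences (horizontal axis, its own scale in each panel) with 95% confidence intervals for the 6 genes (vertical axis) in the LPS responses of fl/fl and +/fl cells, the genotype differences in resting and LPS cells, and the difference of these differences. Filled points passed an adjusted p of 0.05: 6 and 5 in the LPS responses, Pik3ip1 alone in resting cells, and none in the last 2 panels.

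The interaction, the genotype difference after LPS minus that in resting cells, passed in limma for 0 of 6 members, against 0.163% of all genes. Of the 6 members 3 had an unadjusted p under 0.05, against 3477 of all 17132 genes. Pik3ip1 was the nearest, at 1.38 (SE 0.30, 95% interval 0.70 to 2.05, adjusted p 0.0830), with LPS responses of -1.88 in fl/fl cells and -3.26 in +/fl cells. Its second probe gave 1.22 (SE 0.34, adjusted p 0.133 over all probes). The brightest probe passed under 4 alternatives, with adjusted p values of 0.0331 to 0.0470, and over all alternatives the adjusted p ran between 0.0331 and 0.9999. The interaction was 0.78 for Tob1 (SE 0.34, adjusted p 0.234) and -0.73 for Tob2 (SE 0.28, adjusted p 0.200), where the second probe gave -0.14. For Btg1, Btg2 and Btg3 it was -0.08, 0.02 and -0.19 at the brightest probes, with 95% intervals of -0.47 to 0.32, -0.40 to 0.45 and -0.57 to 0.19. The probes of Btg1 disagreed, since its second gave 0.64 (SE 0.23, adjusted p 0.191 over all probes). The other probes of Btg2 gave -0.09 and 0.24.

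Genes around the members were followed in lists set by name. Of 18 genes of the CCR4-NOT complex and deadenylation, 5 rose and 2 fell with LPS in fl/fl cells and 6 rose and 1 fell in +/fl cells. Over all genes 30.2% rose and 25.4% fell in fl/fl cells, and 30.7% rose and 27% fell in +/fl cells. The list median was 0.10 and 0.11, against 0.07 and -0.02 over all genes. Noct, a nocturnin related to the CCR4 nucleases, rose in both genotypes, with 2.27 in fl/fl (adjusted p 1.04e-06) and 2.69 in +/fl cells (adjusted p 3.47e-07). Pabpc4, a cytoplasmic poly(A)-binding protein, rose by 1.46 in either genotype. The complex subunits Cnot9 (1.77 in fl/fl and 1.13 in +/fl cells) and Cnot11 (1.08 and 1.27) also rose. Cnot7 and Cnot8 encode the deadenylases that BTG and TOB proteins bind, and they are named for that role after their values were seen. Cnot7 rose too, with 0.68 in fl/fl (adjusted p 0.00905) and 0.79 in +/fl cells (adjusted p 0.00375), whereas Cnot8 gave -0.09 and 0.09 and passed in neither. With normexp, which failed on some arrays, Cnot7 in fl/fl cells gave -0.0026. Its sign did not turn with repaired normexp. Without scaling 16 and 15 of the 18 genes rose, against 9454 and 7421 of all 17132 genes in fl/fl and +/fl cells.

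Of 17 genes of class IA PI3-kinase, its antagonists and the FOXO factors and their targets, 11 fell and 2 rose with LPS in each genotype. Shares over all genes were 25.4% and 27% lower and 30.2% and 30.7% higher in fl/fl and +/fl cells. The list median was -0.998 in fl/fl cells and -0.78 in +/fl cells. Inpp5d, the lipid phosphatase SHIP, gave -2.59 in fl/fl cells (adjusted p 5.50e-08) and -2.43 in +/fl cells (adjusted p 6.06e-08). The regulatory subunit Pik3r2 had -2.68 in fl/fl and -2.40 in +/fl cells, and the sestrin Sesn1 -2.16 and -2.37. Sesn3 had -1.55 in fl/fl and -1.40 in +/fl cells, and Pik3r1 -1.67 and -1.78. Without scaling, 5 fell and 5 rose in fl/fl cells and 6 fell and 5 rose in +/fl cells. Over all 17132 genes 1408 fell and 9454 rose in fl/fl cells on that scale, and 2083 fell and 7421 rose in +/fl cells. Foxo3, 1 of the 2 list genes that rose with scaling in fl/fl cells (1.09), turned to -0.10 with repaired normexp. It was named after its value was seen.

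Of 19 genes associated with quiescence, 10 fell and 1 rose with LPS in fl/fl cells and 12 fell and 2 rose in +/fl cells. Among all genes 25.4% and 27% fell and 30.2% and 30.7% rose in fl/fl and +/fl cells. The list medians were -1.17 and -1.24. Cdkn2d, an inhibitor of CDK4 and CDK6, differed by -4.73 in fl/fl and -4.61 in +/fl cells. Mxd4, a MAX partner that opposes MYC, had -3.65 and -4.20, and the cyclin Ccng2 -3.14 and -2.83. Tsc22d3, the glucocorticoid-induced GILZ, had -3.55 in fl/fl cells, and Zfp36, an RNA-binding protein that also recruits CCR4-NOT, -3.58 in +/fl cells. All of these passed the test. Tsc22d3 and Zfp36 are given only in the genotype where each was among the 4 list genes with the smallest p. Without scaling 7 of the 19 fell in each genotype and 5 rose in fl/fl cells and 2 in +/fl cells. Of all 17132 genes 1408 and 2083 then fell in fl/fl and +/fl cells, and 9454 and 7421 rose.

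Reported partners and targets of the family went both ways. Of 15 such genes 13 were tested. With LPS 4 rose and 6 fell in fl/fl cells and 5 rose and 6 fell in +/fl cells. Among all genes 30.2% and 30.7% rose and 25.4% and 27% fell in fl/fl and +/fl cells. Cdkn1a, the p53-responsive CDK inhibitor, had the largest change, 8.01 higher in fl/fl cells (adjusted p 4.55e-08) and 7.13 higher in +/fl cells (adjusted p 6.01e-08). The size of that change rests on dim resting values, with means of -4.75 in fl/fl and -4.40 in +/fl cells. These were above background on all 3 arrays of each group. Ccnd2, a D-type cyclin, rose by 4.596 and 3.68, and Mdm2, which targets p53 for degradation, by 1.65 and 1.39. Prmt1, an arginine methyltransferase that BTG proteins bind, rose by 4.02 in fl/fl cells (adjusted p 6.81e-05). Smad5 rose by 0.77 in +/fl cells. Prmt1 and Smad5 are given in 1 genotype by the same rule. Without scaling 7 rose and 1 fell in fl/fl cells and 6 rose and 1 fell in +/fl cells. Of all 17132 genes 9454 and 7421 then rose in fl/fl and +/fl cells, and 1408 and 2083 fell.

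**Figure D4:**
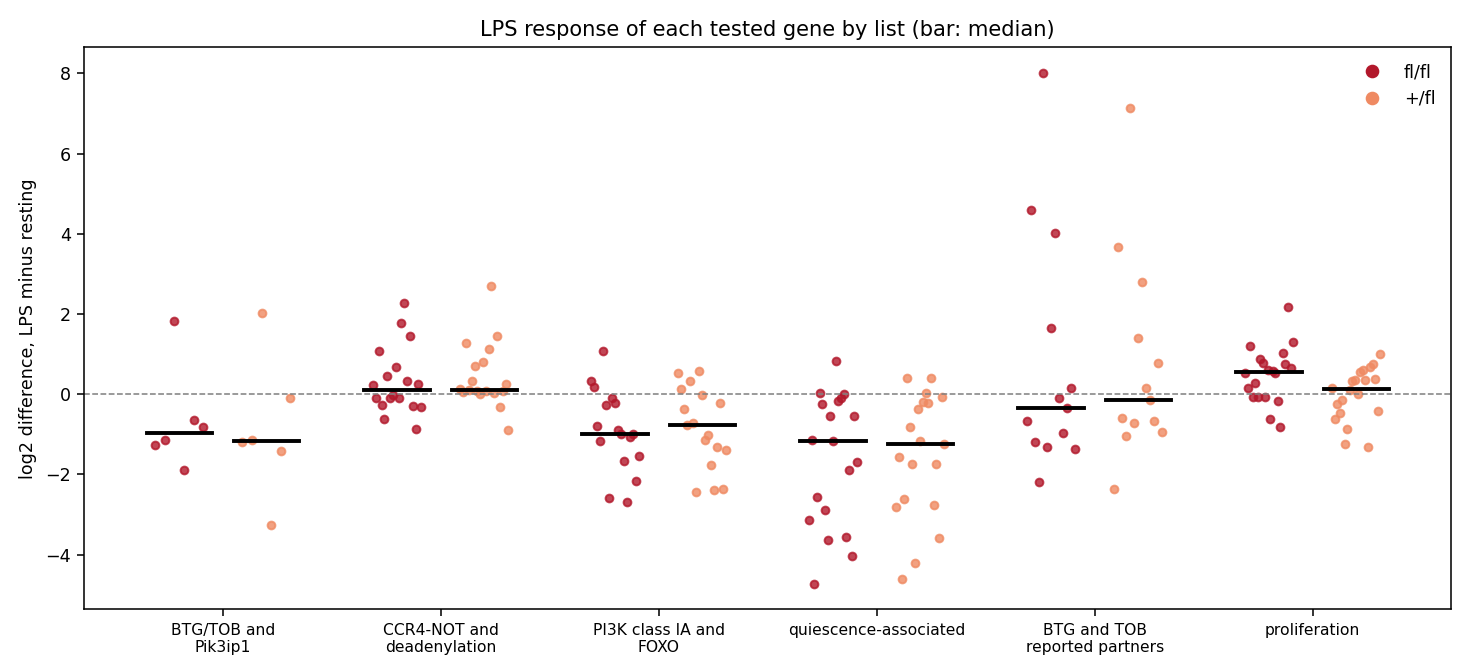
LPS response (vertical axis, log2 difference of LPS minus resting) of every tested gene in 6 lists (horizontal axis) in fl/fl and +/fl cells. Each point is a gene and bars are list medians. The PI3-kinase and FOXO list and the quiescence list have medians between -1.24 and -0.78, and the CCR4-NOT list 0.10 and 0.11.

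Between the resting genotypes 2 of 18 CCR4-NOT and deadenylation genes were higher in fl/fl cells and 1 was lower. Of 17 PI3-kinase and FOXO, 19 quiescence and 13 partner genes, 2 each were higher and 0 lower. Over all genes 8.83% passed in resting cells and 1.62% after LPS. In resting cells Cnot9 was 0.76 lower in fl/fl than in +/fl cells and Cnot3 (0.75) and Pan3 (0.82), a subunit of another deadenylase, were higher. Pdpk1 (0.49), a kinase downstream of PI3-kinase, Klf3 (1.16) and Foxp1 (0.58), transcription factors on the quiescence list, and Smad5 (0.69) and Smad1 (0.99), signal transducers of BMP receptors, were higher too. Of 20 proliferation genes 9 were lower in resting fl/fl cells and none was higher, with a list median of -1.57 against 0.05 over all genes. Among them E2f1 was 1.31 lower (adjusted p 0.00626) and Tyms 1.90 lower (adjusted p 0.0140). Myeloid and erythroid markers moved the same way, with list medians of -1.17 and -1.22, though only 1 of 11 and 0 of 8 passed. Platelet markers went the other way, with a list median of 1.19 and 2 of 6 higher. Resting +/fl replicates 1 and 3 had the high myeloid sums given above. Without these 2 arrays the proliferation median was -0.73, against 0.01 over all genes, and 0 of the 20 genes passed, nor did any CCR4-NOT, PI3-kinase, quiescence or partner gene, in the fit that leaves 1 resting +/fl array. After LPS, Ccne1 was 1.63 lower in fl/fl cells (SE 0.33, adjusted p 0.0454), the 1 call among the 13 partners. With quantile normalization, the deposited values, normexp or no scaling, 0 of the 13 passed. Median scaling called 2 partners lower, and repaired normexp called 2 lower and 1 higher. Of the 20 proliferation genes 3 were lower in LPS fl/fl cells and 0 higher (list median -0.77), namely the replication helicase subunits Mcm4 (-0.70, adjusted p 0.0161), Mcm7 (-0.77, adjusted p 0.0229) and Mcm2 (-0.78, adjusted p 0.0454). With LPS 7 of the 20 rose and 1 fell in fl/fl cells (median 0.55), and 6 rose and 1 fell in +/fl cells (median 0.13). Shares over all genes were 30.2% and 30.7% higher and 25.4% and 27% lower in fl/fl and +/fl cells. Without scaling 13 and 9 rose and 0 fell, against 9454 and 7421 of all 17132 genes rising and 1408 and 2083 falling. Between the LPS groups 0 of the 20 were lower on that scale, against 2 of all genes. With quantile normalization the median LPS response in +/fl cells was -0.02. None of the CCR4-NOT, PI3-kinase or quiescence genes passed in limma after LPS. Of these 18, 17 and 19 genes, 4, 4 and 2 had an unadjusted p under 0.05, against 3678 of all 17132 genes.

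Likeness was measured as the root mean square difference in log2 value over the 12 arrays, each gene centred on its own mean. The closest genes to Btg1 were Nmb (0.084), Leng9 (0.092) and Nadsyn1 (0.092), with 0.827 for the median gene. Those closest to Btg2 were Arhgap26 (0.130), Lrrc45 (0.135) and Dop1b (0.138), and to Btg3 Pithd1 (0.086), Ruvbl1 (0.091) and Exosc2 (0.1001). Tob1 had no neighbour as near, with Sgk3 (0.210), Ube2h (0.221) and Chd6 (0.228) first. Tob2 was nearest to Rac1 (0.134), Rps6ka1 (0.138) and Was (0.140). Pik3ip1 was nearest to a transcript listed as AI851065 (0.109), followed by Abi3 (0.221) and Psap (0.249), with 1.46 for the median gene. AI851065 had differences of -1.66 and -3.13 in the LPS responses of fl/fl and +/fl cells and -1.05 between resting fl/fl and resting +/fl cells.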

How the data were processed

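Single-colour Agilent arrays of mouse B cell RNA were measured in 12 samples of 4 groups on 3 slides. Per the file headers, the signal used is a Cy3 intensity from which background had been subtracted. The headers name Feature Extraction 9.5.3.1 and the submitters' processing notes name 9.1. The value table that the authors deposited is intensity too. It tracks the scanner values (Spearman 0.9999 or above on each array), and no source used here states how it was normalized.

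Flagged spots were left out, which removed 87 probes, and replicate spots were averaged. Values became log2 minus the 75th percentile of the array. A probe was kept if 3 or more of the 12 arrays read it well above background. That kept 25675 probes of 17132 genes, and the brightest probe stood for a gene. The 4 group means were fitted with limma 3.58.1 in R 4.3.3 (1.79 prior degrees of freedom) to all 12 arrays together, and contrasts were adjusted by the Benjamini-Hochberg method over all genes at a threshold of 0.05. Other probes of a gene were fitted and adjusted over all probes. Lists describe genes by counts and medians. The number of arrays limits the precision.

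Replicate numbers were checked as pairs through the correlation of deviations from the group means, which ran between -0.145 and 0.126 for arrays of the same replicate number, so no pairing was assumed. Resting +/fl replicate 3 and LPS +/fl replicate 1, whose sample names carry 1 number, correlated at 0.133, and a fit without both was among the alternatives. The members, the lists and the rule for named genes (all members, the 4 genes of a list with the smallest p among those passing, and the 3 genes most like a member) were chosen with earlier results of these data known. Some list genes are counted but not reported by name here. The alternatives were normexp background correction (offset 50) and a repaired form of it, quantile normalization, scaling by the median or not at all, the deposited values, other filters and variance models, slide and replicate blocks, array weights, other probe rules, a stricter threshold and fits without single arrays or pairs of arrays.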

Additional observations from a re-analysis of the deposited data

How the results depend on the processing

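The number of members that passed in the resting genotype comparison was 1. It was 0 with normexp, median scaling, no filter on dim probes, the replicate block (Pik3ip1 -1.03, adjusted p 0.0540), only the 6 arrays of the comparison, an adjusted p under 0.01, without resting +/fl replicate 3 and LPS +/fl replicate 1 together, whose names carry 1 number, with no scaling, and without resting +/fl replicates 1 and 3, and it was 2 with a trended, robust variance model (Btg2 0.42, adjusted p 0.0390). Leaving out 1 array gave 0 to 1. In the genotype comparison after LPS it was 0, and 2 with array weights, and 0 without any 1 array. For fl/fl cells and LPS it was 6, against 2 with normexp, 3 with no scaling and 5 to 6 without 1 array. It was 5, with Tob1 lost, under median scaling (-0.95, adjusted p 0.0660), no filter on dim probes (adjusted p 0.0777), only the 6 arrays of the comparison (adjusted p 0.0814), slide as a block (-0.59, adjusted p 0.0930), an adjusted p under 0.01, and without either pair of arrays (adjusted p 0.0707 and 0.0549). For +/fl cells and LPS it was 5, against 2 with normexp, 4 with median scaling (Btg2 -0.91, adjusted p 0.0506) and 5 without any 1 array, and with the mean over probes it was 6, since Tob2 then fell by 0.73 (adjusted p 0.00123). In the interaction it was 0, and 1 (Pik3ip1) with the filter on all 12 arrays (adjusted p 0.0470), the trended, robust model (0.0362), array weights (1.62, 0.0331) and repaired normexp (1.35, 0.0441), and 0 without any 1 array. With no scaling the LPS differences of Tob1 and Tob2 in fl/fl cells turned to 0.18 and 0.0035. Normexp failed on 3 arrays, where 7, 20 and 16 spots had a local background above 2 times the median, and repaired normexp, no scaling and the fit without resting +/fl replicates 1 and 3 were added after the data were seen. The replicate block changed no other call of a member. Over the alternatives the number of all genes called ran between 0 and 2226 in resting cells, 0 and 2764 after LPS, 2336 and 14105 and 1425 and 14650 in the LPS responses of fl/fl and +/fl cells, and 0 and 409 in the interaction. Causes of these changes were not tested.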
